A study of Schizosaccharomyces pombe with 32 samples.

Results

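Cohesin is the ring-shaped protein complex that holds sister chromatids together from DNA replication until they separate. Of the 6 fission yeast genes chosen by name for cohesin subunits, 5 matched a probe, 1 probe each, among the 4819 genes matched on the arrays: rec8 (SPBC29A10.14), rad21 (SPCC338.17C), psm1 (SPBC29A10.04), psm3 (SPAC10F6.09C) and psc3 (SPAC17H9.20). All 5 were measured on all 32 arrays and stood among the 4811 genes tested. The gene rec11 had no match in the gene table for the array and was not analysed here. Psm1 and Psm3 are the SMC ATPases that form the arms of the ring in both mitosis and meiosis. The ring is closed by a kleisin, which is Rad21 in dividing cells and largely Rec8 in meiosis. A further subunit binds the kleisin. It is Psc3 in mitosis, and in meiosis Psc3 stays with Rec8 near centromeres while Rec11 joins Rec8 along the arms. Rec8 cohesin is needed for meiotic chromosome axes and recombination, and for keeping sister centromeres together through the first meiotic division.

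On each array, RNA of cells starved of nitrogen carried the Cy5 dye and RNA of the same strain in growth carried Cy3. With P-factor, cells of the strain labelled CRL672 were starved in medium holding 0.5 ug per ml of the synthetic pheromone. Without it, cells of the strain labelled L972 were starved. P-factor is the peptide that P cells release and M cells sense. The labels give neither the genotype nor the mating type of either strain, so that strain and pheromone changed together and cannot be told apart. Both strains grew in rich YES medium at 30C, were washed into EMM2 lacking a nitrogen source and were sampled hourly from 1 to 8 h. Each hour of each condition had 2 arrays, and by their array numbers the 32 arrays form 4 series of 8, called here replicate 1 and replicate 2 of each condition. Values below are log2 ratios, starved over growing, after each array was centred on its median. The sources used here do not give the base of the logarithm, which was taken as 2, and folds below rest on that. A ratio says nothing of one gene's level against another's. A bulk ratio cannot tell apart a share of cells with a changed transcript from a change in all cells.

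Of the genes listed for the starvation response, ste11 and mei2 rose late in both conditions and isp6 fell. The transcription factor gene ste11, which drives mating genes, rose between 1 to 3 h and 6 to 8 h by 3.11 ± 0.12 (SE) with P-factor and by 2.07 ± 0.12 without it. The gene mei2, for the RNA-binding inducer of meiosis, rose by 4.59 ± 0.36 with P-factor and by 3.71 ± 0.36 without it. The rise of ste11 was greater with P-factor (difference 1.03 ± 0.17, limma, adjusted p = 0.000178), beside 15.6% of all genes called in that direction. The differences for mei2 (0.88 ± 0.50, adjusted p = 0.215) and isp6 (0.06 ± 0.19, adjusted p = 0.844) were not called. The gene isp6, induced by starvation, averaged 6.11 with P-factor and 6.14 without it over the 8 h, above growth in both. Its late minus early change was -0.60 ± 0.13 with P-factor (limma, adjusted p = 0.000631) and -0.66 ± 0.13 without it (adjusted p = 0.00037). With arrays scaled to one spread neither was called (-0.15 with P-factor and -0.42 without it), nor was the first with arrays centred on probes without a single gene (-0.04) or the second without replicate 1 of its condition (-0.46). All 4 measured genes of 5 listed for M cells (mfm1, mfm3, mam1 and mam2) rose in both conditions. Over all genes 33.7% rose late with P-factor and 24% without it. The rise was greater with P-factor for mam1 (difference 1.24 ± 0.28) and mam2 (1.83 ± 0.46), beside 15.6% of all genes called in that direction. The difference was not called for mfm1, where it went the other way (-0.77 ± 0.52, adjusted p = 0.293). Nor was it called for mfm3 (0.38 ± 0.60, adjusted p = 0.685). The mam2 difference was not called without replicate 2 of the P-factor condition (0.99) or without replicate 1 of the other (1.05). Nor was it called with quantile normalization (0.56, adjusted p = 0.451) or without the random block (adjusted p = 0.0502). Of the 2 P-cell genes listed, 1 was measured, map3, for the M-factor receptor. It rose by 1.10 ± 0.18 with P-factor and stood at -0.31 ± 0.18 without it. The part of these markers in the results below was not tested.

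**Figure D1:**
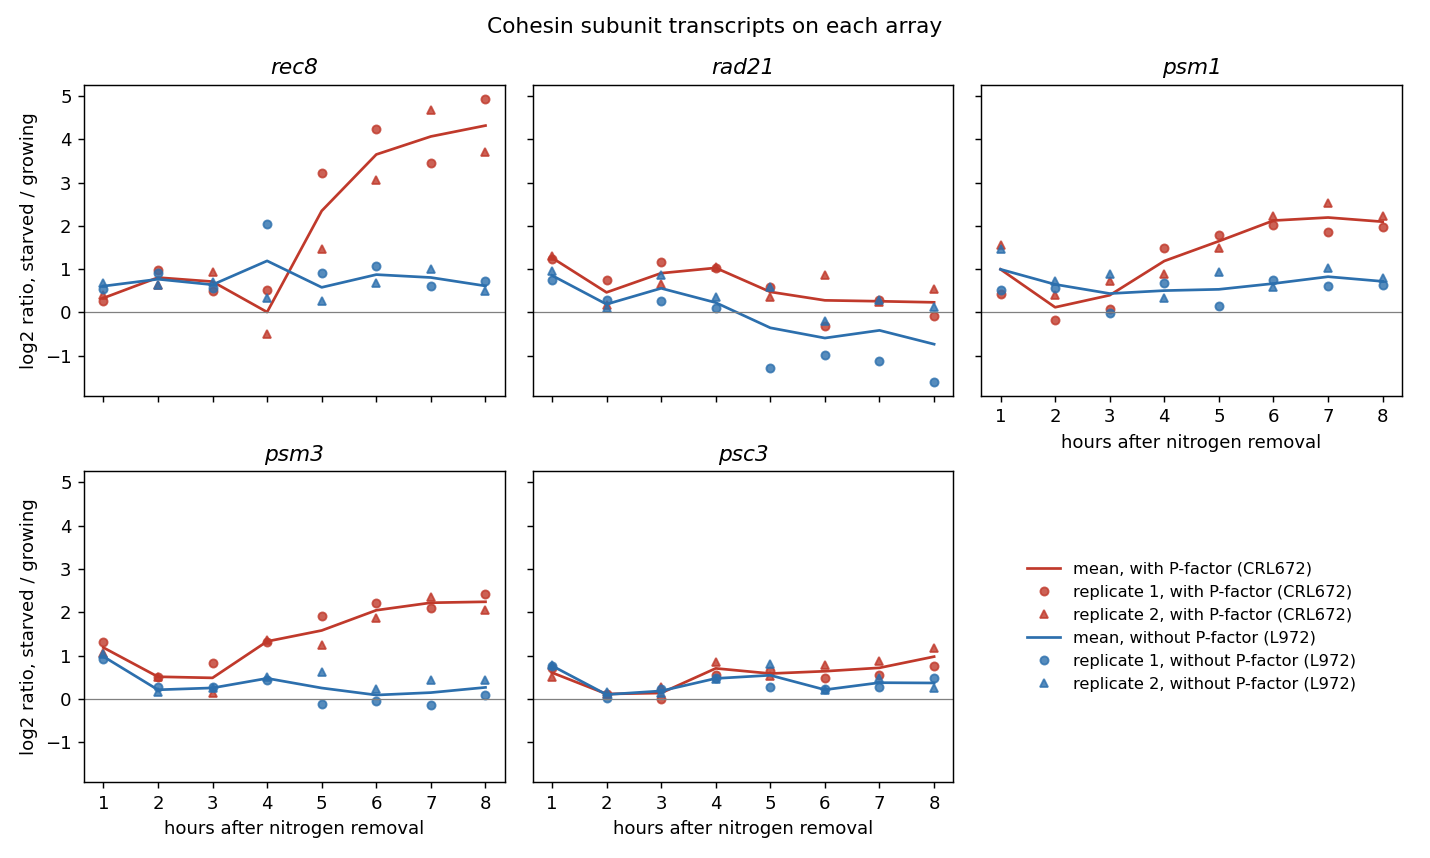
Log2 ratio of starved over growing cells (y axis) by hours after nitrogen removal (x axis) for the 5 cohesin subunit genes. Circles and triangles are replicate 1 and replicate 2, and lines are the means of 2 arrays. With P-factor (red) rec8 lies between 3.07 and 4.93 at 6 to 8 h and psm1 and psm3 lie between 1.85 and 2.54, while without P-factor (blue) no cohesin gene exceeds 1.07 in those hours.

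The meiotic kleisin gene rec8 had the largest late change of the 5 with P-factor, and without P-factor its late change was not called. With P-factor it was close to its early level through 4 h and high from 5 h on. In replicate 1 with P-factor the hourly log2 ratios from 1 to 8 h were 0.26, 0.98, 0.49, 0.51, 3.22, 4.23, 3.45 and 4.93. In replicate 2 with P-factor they were 0.40, 0.64, 0.94, -0.50, 1.47, 3.07, 4.67 and 3.70. The step between 4 and 5 h was upward in both replicates, and every array from 5 h on stood above every array up to 4 h. The share of all genes with such a separation of arrays was not counted, here or for the comparisons below. Without P-factor, replicate 1 read 0.54, 0.91, 0.58, 2.04, 0.90, 1.07, 0.62 and 0.72, and replicate 2 read 0.67, 0.63, 0.71, 0.34, 0.26, 0.68, 0.99 and 0.51. These 16 values lay between 0.26 and 1.07 apart from a single array, that of replicate 1 at 4 h.

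Averaged over 6 to 8 h minus 1 to 3 h, rec8 rose by 3.39 ± 0.29 on the log2 scale with P-factor, a 10.5-fold change (limma, adjusted p = 2.2e-09). Without P-factor the same difference was 0.09 ± 0.29 (adjusted p = 0.827). The difference between these changes was 3.30 ± 0.41 (adjusted p = 4.19e-06). Among all 4811 genes, 33.7% rose late with P-factor and 24% without it, and 15.6% had a called difference in the direction of P-factor. Ordered from the largest increase, rec8 ranked 23 of 4811 with P-factor, 2205 without it and 9 for the difference. At 8 h with P-factor its mean was 4.31 ± 0.44, a 19.9-fold excess over growing cells (adjusted p = 4.2e-08), beside 29.9% of all genes called higher at that hour. At 1 to 4 h with P-factor no hour was called for rec8 (adjusted p between 0.121 and 0.989). Without P-factor the 4 h mean was called (1.19 ± 0.44, adjusted p = 0.0262), beside 27.4% of all genes, and without replicate 1 it was 0.34 and was not called.

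The array also held 320 probes to which the gene table gave no gene or several. Their median lay between -0.41 and -0.11 on the 6 late arrays with P-factor and between 0.12 and 0.68 on the 6 early ones. The rec8 ratio exceeded this median by 3.29 to 5.33 on the late arrays with P-factor and by 0.12 to 0.71 on the early ones. Without P-factor it exceeded the median by 0.42 to 0.86 on the late arrays and by 0.26 to 0.90 on the early ones. The late rise of rec8 with P-factor was thus present against either baseline. Its early ratios exceeded the median of such probes on every array, by at most 0.71 with P-factor and 0.90 without it.

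The mitotic kleisin gene rad21 was lower late than early in both conditions. With P-factor, replicate 1 read 1.23, 0.75, 1.16, 1.02, 0.59, -0.31, 0.28 and -0.08 from 1 to 8 h. Replicate 2 with P-factor read 1.30, 0.18, 0.65, 1.04, 0.36, 0.87, 0.24 and 0.55. The late and early arrays overlapped. Without P-factor, replicate 1 read 0.75, 0.29, 0.26, 0.09, -1.28, -0.99, -1.12 and -1.60, and replicate 2 read 0.96, 0.09, 0.86, 0.36, 0.58, -0.19, 0.30 and 0.13. From 5 h on, replicate 1 without P-factor stood apart, with all 4 values below every other rad21 value in the series.

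The late minus early change of rad21 was -0.62 ± 0.25 with P-factor (limma, adjusted p = 0.0392) and -1.11 ± 0.25 without it (adjusted p = 0.000979). It was called as lower in both, beside 19.8% of all genes with P-factor and 18.3% without it. Each call rested on 1 replicate. Leaving out replicate 1 with P-factor gave -0.16 (adjusted p = 0.753), and leaving out replicate 1 without P-factor gave -0.56 (adjusted p = 0.168). With P-factor it was also not called with arrays scaled to one spread, without the random block, or with arrays centred on probes without a single gene. Between conditions the change differed by 0.49 ± 0.35 and was not called (adjusted p = 0.326). Against growth, rad21 was higher with P-factor at 1 h (1.26 ± 0.38, adjusted p = 0.00679), at 3 h (0.91 ± 0.38, adjusted p = 0.0471) and at 4 h (1.03 ± 0.38, adjusted p = 0.0255), and at no later hour. The share of all genes called higher at these hours was 26.4%, 24.4% and 28.7%. Without either replicate of that condition, none of these 3 hours was called. Without P-factor no hour was called, and the 1 h mean was 0.86 ± 0.38 (adjusted p = 0.0596).

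**Figure D2:**
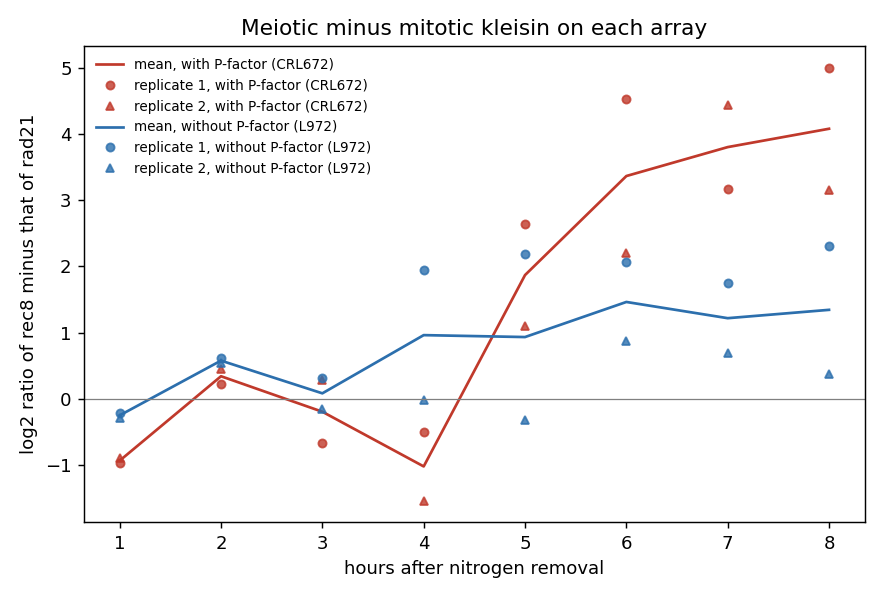
Log2 ratio of rec8 minus that of rad21 on the same array (y axis) by hours after nitrogen removal (x axis), with circles and triangles for replicate 1 and replicate 2 and lines for the means of 2 arrays. With P-factor (red) the difference is at or below 0.46 up to 4 h and at or above 1.11 from 5 h. Without P-factor (blue) replicate 1 reaches 2.32 and replicate 2 does not exceed 0.87.

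Set against each other on the same array, the meiotic and mitotic kleisin transcripts moved apart. A difference of this kind shows unequal change from growth, not unequal amounts. With P-factor, rec8 minus rad21 averaged 3.75 ± 1.07 at 6 to 8 h and -0.26 ± 0.65 at 1 to 3 h (SD over 6 arrays each). Without P-factor it averaged 1.34 ± 0.80 at 6 to 8 h and 0.14 ± 0.40 at 1 to 3 h. The late minus early change was 4.01 ± 0.40 with P-factor, with a 95% interval of 3.18 to 4.85. Without P-factor it was 1.21 ± 0.40, with an interval of 0.37 to 2.04. In that condition the change of rec8 alone was 0.09 and that of rad21 was -1.11. By series the change of rec8 minus rad21 was 4.71 and 3.32 with P-factor and 1.80 and 0.61 without it, so the 2 conditions did not overlap. The difference between conditions was 2.81 ± 0.57 (interval 1.63 to 3.99). These intervals take the hours of a series as separate arrays. They do not measure the spread of the change between series. An exact two-sided permutation test over the 4 series gave p = 0.333, the smallest that 2 series against 2 allow.

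Hour by hour, the interval of rec8 minus rad21 with P-factor included 0 from 1 to 4 h, with means of -0.93, 0.34, -0.19 and -1.02. It lay above 0 from 5 h, with means of 1.87, 3.37, 3.80 and 4.08 at 5, 6, 7 and 8 h. Without P-factor the interval lay above 0 at 6 and 8 h, with means of 1.46 and 1.35, and included 0 at the other hours. With P-factor minus without it, the difference was -1.98 at 4 h (interval -3.78 to -0.19), where the values were -0.51 and -1.54 with P-factor and 1.95 and -0.02 without it. It was 1.90, 2.58 and 2.74 at 6, 7 and 8 h, with intervals above 0, and the intervals at 1, 2, 3 and 5 h included 0. These hourly intervals were not adjusted for the 8 hours compared.

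The SMC ATPase genes psm1 and psm3, whose products serve both the mitotic and the meiotic ring, also rose with P-factor. From 1 to 8 h, psm1 read 0.43, -0.17, 0.07, 1.49, 1.80, 2.02, 1.85 and 1.96 in replicate 1 with P-factor and 1.57, 0.41, 0.73, 0.88, 1.50, 2.23, 2.54 and 2.23 in replicate 2. Without P-factor it read 0.52, 0.57, -0.01, 0.68, 0.14, 0.75, 0.62 and 0.64 in replicate 1 and 1.47, 0.73, 0.88, 0.33, 0.93, 0.59, 1.03 and 0.80 in replicate 2. The 6 late arrays with P-factor lay above all 6 early ones and above all 6 late arrays without P-factor. At 1, 2 and 3 h, replicate 1 was below replicate 2 in both conditions.

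The psm3 ratios were likewise high late with P-factor. With P-factor, replicate 1 read 1.32, 0.51, 0.83, 1.31, 1.92, 2.22, 2.10 and 2.43 from 1 to 8 h, and replicate 2 read 1.05, 0.52, 0.15, 1.35, 1.24, 1.88, 2.34 and 2.06. Without P-factor, replicate 1 read 0.92, 0.27, 0.27, 0.45, -0.12, -0.05, -0.15 and 0.10, and replicate 2 read 1.05, 0.15, 0.25, 0.51, 0.63, 0.24, 0.44 and 0.44. From 4 h on, every array with P-factor was above every array without it.

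The late minus early change of psm1 was 1.63 ± 0.19 with P-factor (limma, adjusted p = 3.53e-07) and 0.04 ± 0.19 without it (adjusted p = 0.881). The change of psm3 was 1.44 ± 0.13 with P-factor (adjusted p = 8.04e-09) and -0.31 ± 0.13 without it (adjusted p = 0.0623). The difference between conditions was 1.59 ± 0.27 for psm1 (adjusted p = 0.000215) and 1.76 ± 0.19 for psm3 (adjusted p = 6.28e-07). These folds with P-factor, 3.10 for psm1 and 2.72 for psm3, were smaller than the 10.5 of rec8. Averaged over all 8 h, psm3 was the member called between conditions, at 1.12 ± 0.19 higher with P-factor (adjusted p = 0.00158), beside 2.12% of all genes called higher. Without replicate 1 of the P-factor condition this was 0.99 and was not called (adjusted p = 0.165). The average for rec8 was 1.27 ± 0.41 (adjusted p = 0.101).

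The gene psc3, for the subunit that binds Rad21 in mitosis and Rec8 near centromeres in meiosis, had the smallest late change of the 5 with P-factor. With P-factor it lay between -0.01 and 1.18, with a median of 0.56, and without P-factor between 0.03 and 0.81, with a median of 0.28 (16 arrays each). At 6 to 8 h the values ran from 0.494 to 1.18 with P-factor and from 0.20 to 0.479 without it, so that the ranges did not overlap but almost met. It rose late by 0.49 ± 0.11 with P-factor (adjusted p = 0.000601) and stood at -0.03 ± 0.11 without it (adjusted p = 0.84). The rise was 0.34 without replicate 2 of the P-factor condition and was not called (adjusted p = 0.106). Between conditions the change differed by 0.52 ± 0.15 (adjusted p = 0.0144). It was not called without replicate 2 of the P-factor condition (0.37, adjusted p = 0.203), nor without replicate 1 (0.54, adjusted p = 0.109) or replicate 2 (0.50, adjusted p = 0.134) of the condition without it. With the values as deposited it was 0.40 (adjusted p = 0.0606).

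Of the 5 subunit genes, 4 thus rose late with P-factor and 1 fell, and without P-factor none rose and 1 fell (limma; at an unadjusted p under 0.05, 0 rose and 2 fell). Over all genes 33.7% rose and 19.8% fell with P-factor, and 24% rose and 18.3% fell without it. The median of the 5 changes was 1.44 with P-factor and -0.03 without it, where the median over all genes tested was 0.11 and 0.05. For the difference between conditions, 4 of 5 were called, beside 25.8% of all genes in either direction.

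**Figure D3:**
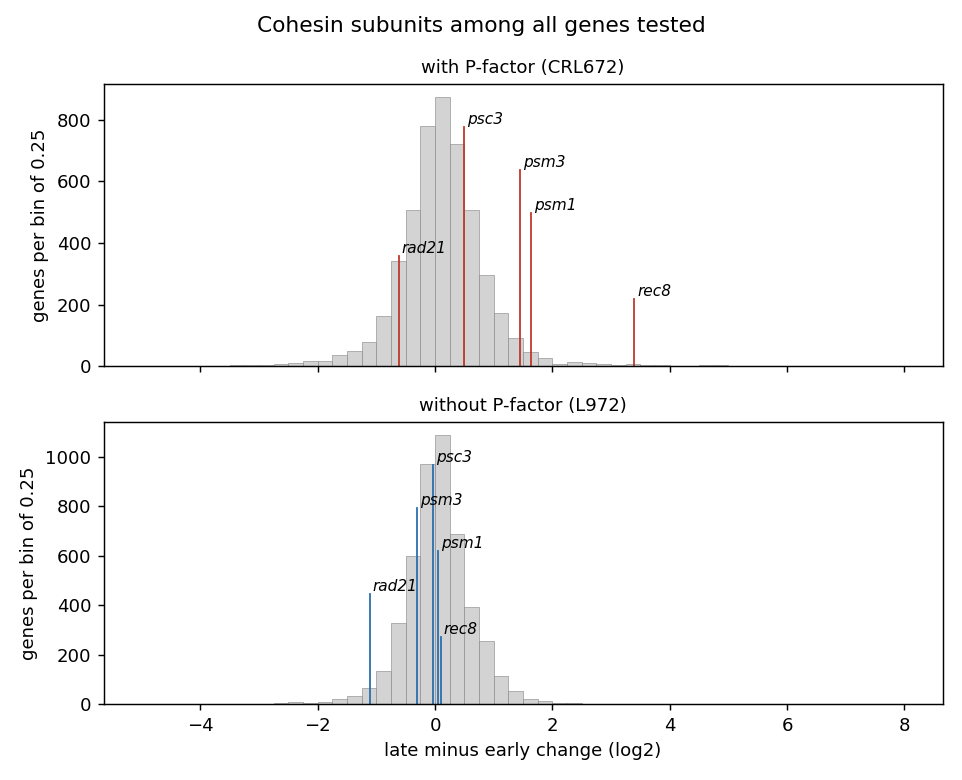
Number of genes (y axis) by late minus early change on the log2 scale (x axis, bins of 0.25) for all genes tested, with P-factor above and without it below, and the 5 cohesin genes as vertical lines, whose heights carry no value. With P-factor rec8 lies far in the upper tail at 3.39, psm1 and psm3 at 1.63 and 1.44 and rad21 at -0.62, while without P-factor rec8, psm1 and psc3 lie near 0 and rad21 at -1.11.

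Averaged over the 8 h, all 5 genes were above growth with P-factor, beside 33.9% of all genes. The averages were 2.03 for rec8, 1.45 for psm3, 1.34 for psm1, 0.61 for rad21 and 0.56 for psc3. Without P-factor 4 were above growth, beside 33.7% of all genes: rec8 at 0.76, psm1 at 0.67, psc3 at 0.38 and psm3 at 0.34, while rad21 stood at -0.03. The rad21 average with P-factor was not called without either replicate of that condition (0.65 and 0.58). Without P-factor, rec8 was not called without replicate 1 (0.60) and psm3 not without replicate 2 (0.21), and rad21 was 0.39 without replicate 1 and -0.45, called, without replicate 2.

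The conditions were also compared at each hour, and differences in timing between subunits were not tested. From 1 to 4 h none of the 20 tests (5 genes at each of 4 hours) was called between conditions in limma, and 1 of them, psm3 at 4 h, had an unadjusted p under 0.05 (0.85 ± 0.29). Over all genes, the share called higher with P-factor was 0.0831%, 0.0208%, 0% and 0% at 1, 2, 3 and 4 h. At 5 h psm3 was called, at 1.33 ± 0.29 (adjusted p = 0.0197), beside 0.748% of all genes. At that hour rec8 stood at 1.77 ± 0.62 and psm1 at 1.11 ± 0.42 (adjusted p = 0.268 and 0.3). The psm3 call at 5 h was lost without replicate 1 of the P-factor condition (0.99) and without replicate 1 of the other (0.95), and with arrays centred on probes without a single gene (1.40, adjusted p = 0.0663).

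At 6, 7 and 8 h, rec8, psm1 and psm3 were called higher with P-factor, beside 3.47%, 5.34% and 6.36% of all genes. The rec8 difference was 2.77 ± 0.62, 3.26 ± 0.62 and 3.70 ± 0.62 at these hours. The psm3 difference was 1.96 ± 0.29, 2.08 ± 0.29 and 1.98 ± 0.29, and it was called at each of them in all 12 alternatives run. The psm1 difference was 1.45 ± 0.42, 1.37 ± 0.42 and 1.38 ± 0.42, with adjusted p between 0.0409 and 0.0487. It was called in 7, 8 and 8 of 12 alternatives at 6, 7 and 8 h, and leaving out 1 of the 4 replicate series ended it in 4 of 4 cases at 6 h, 3 of 4 at 7 h and 4 of 4 at 8 h. The rec8 call held in all 12 alternatives at 7 and 8 h. At 6 h it was lost without replicate 1 of the P-factor condition (2.20, adjusted p = 0.129) and without replicate 1 of the other (2.97, adjusted p = 0.0635). No hour was called for rad21 or psc3, and at 8 h they stood at 0.97 ± 0.53 and 0.61 ± 0.23 (adjusted p = 0.299 and 0.115).

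The first hour showed a feature shared by both conditions. With P-factor rad21, psm1, psm3 and psc3 were above growth at 1 h, at 1.26, 1.00, 1.19 and 0.61, beside 26.4% of all genes called higher. Without P-factor psm1, psm3 and psc3 were called at 1 h, at 1.00, 0.98 and 0.77, beside the same 26.4%. The psm1 call at 1 h was lost without replicate 2 of either condition (0.43 with P-factor and 0.52 without it), and the psc3 call with P-factor without replicate 1 (0.52). At 2 h, rad21, psm3 and psc3 were lower than at 1 h in all 4 series and psm1 in 3, a step that was not tested. The share of all genes lower at 2 h than at 1 h was not counted. The rec8 ratio was lower at 2 h than at 1 h in 1 of 4 series, and rec8 was not called at 1 h in either condition (0.33 ± 0.44 with P-factor and 0.61 ± 0.44 without it). On the 2 h arrays, the 320 probes mentioned above had medians of 0.29 to 0.68 with P-factor and 0.25 to 0.38 without it, and their part in the step was not tested.

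Over the arrays of a condition, the subunits differed in how they varied together. Across the 16 arrays with P-factor, Pearson's r of rec8 was 0.83 with psm3, 0.78 with psm1, 0.47 with psc3 and -0.74 with rad21. Across the 16 without P-factor, rec8 had r between -0.18 and 0.04 with these 4 genes, and the pair with the highest r was rad21 and psm3 (0.80). The arrays of a condition share a strain and the 8 h course, so these values are descriptions.

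The genes whose 32 ratios were most like those of rec8 were rti1 (r = 0.96), a gene of the Rad52 family of recombination proteins, bqt1 (r = 0.95), which tethers telomeres in the meiotic bouquet, and num1 (r = 0.95), the cortical anchor of dynein. Their late minus early changes with P-factor were 2.77, 3.02 and 3.44. Nearest to psm3 were SPAC17H9.18C (r = 0.95), cdt2 (r = 0.95), an adaptor of a ubiquitin ligase that acts around S phase, and mpg1 (r = 0.94). Nearest to psm1 were cdc10 (r = 0.89), a subunit of the MBF transcription factor of the G1/S transition, the telomere end-binding gene pot1 (r = 0.89) and yam8 (r = 0.88). Nearest to psc3 were ams2, the cyclin gene cig2 and the mismatch repair gene msh6 (r = 0.77, 0.76 and 0.76). Nearest to rad21 were knh4, nrs1 and pet2 (r = 0.87 each to the second decimal). Their late minus early changes with P-factor were -0.63, -0.43 and 0.20.

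Genes that load, modify and remove cohesin were followed as a list of 10, all measured. With P-factor 5 rose late and none fell in limma (none at an unadjusted p under 0.05 either), beside 33.7% of all genes that rose, and the list's median was 0.62 against 0.11 over all genes. The largest increases were those of eso1, the acetyltransferase that establishes cohesion in S phase, at 1.80 ± 0.14 (adjusted p = 5.69e-10), and of mis4, the cohesin loader, at 1.73 ± 0.13 (adjusted p = 2.14e-10). The shugoshin genes sgo1, which protects Rec8 at centromeres in the first meiotic division, and sgo2 rose by 1.15 ± 0.16 and 0.81 ± 0.15, and pds5, for a protein bound to cohesin, by 1.01 ± 0.12. The sgo2 rise was 0.61 without replicate 1 of the P-factor condition and was not called (adjusted p = 0.0511).

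The loader partner gene ssl3, the releasing factor gene wpl1, the separase gene cut1, the securin gene cut2 and moa1, a meiotic partner of Rec8 at the core centromere, were not called with P-factor, at 0.25, 0.44, 0.25, -0.04 and -0.32. Without P-factor 4 of the 10 rose, beside 24% of all genes: sgo1 (0.75 ± 0.16), sgo2 (0.72 ± 0.15), eso1 (0.51 ± 0.15) and cut1 (0.44 ± 0.13). Of these, sgo2 and cut1 were not called without replicate 1 of that condition (0.37 and 0.22), nor eso1 without replicate 2 (0.39). The difference between conditions was called for mis4 (1.62 ± 0.18), eso1 (1.29 ± 0.20) and pds5 (1.01 ± 0.18), beside 15.6% of all genes called in that direction. It was not called for sgo1 (0.40 ± 0.23), sgo2 (0.09 ± 0.21), wpl1 (0.51), cut2 (0.34), ssl3 (0.16), moa1 (-0.03) or cut1 (-0.19). The pds5 difference was 0.87 without replicate 2 of the condition without P-factor and was not called (adjusted p = 0.0575).

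**Figure D4:**
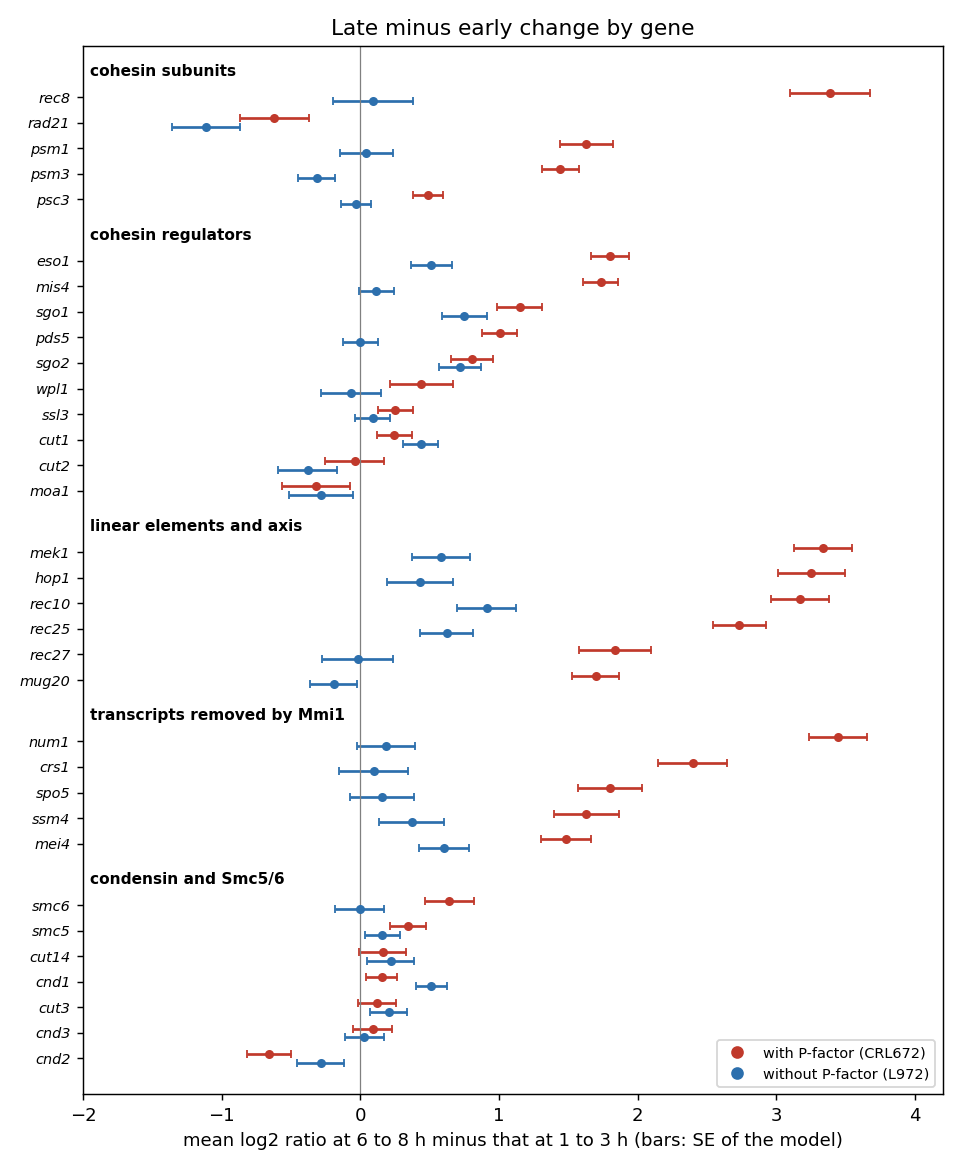
Mean log2 ratio at 6 to 8 h minus that at 1 to 3 h (x axis) for the cohesin subunits and the genes of 4 related lists (rows), with P-factor in red and without it in blue, and bars for the standard error of the model. Rec8 with P-factor (3.39) lies just above the linear element genes (1.70 to 3.34) and just below num1 (3.44), and condensin and Smc5/6 genes lie between -0.66 and 0.64.

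Genes of the linear elements, the meiotic chromosome axes that form on Rec8 cohesin, all rose late with P-factor (6 of 6 measured, median 2.95), beside 33.7% of all genes. Their range was 1.70 (mug20) to 3.34 (the kinase gene mek1), with rec10, the main linear element protein, at 3.17 ± 0.21 and hop1 at 3.25 ± 0.24. Without P-factor 3 of 6 rose, beside 24% of all genes, with a median of 0.51: rec10 (0.91 ± 0.21), rec25 (0.62 ± 0.19) and mek1 (0.59 ± 0.21). Each of these 3 calls was lost without replicate 1 of that condition (0.80, 0.69 and 0.78 for rec10, rec25 and mek1) and without replicate 2 (1.03, 0.56 and 0.39). The difference between conditions was called for all 6, at 1.86 to 2.82, beside 15.6% of all genes called in that direction, and rec8 stood at 3.30 in the same comparison.

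The transcript of rec8 is among those that the RNA-binding protein Mmi1 removes in growing cells, until Mei2 holds Mmi1 back in meiosis. Of 5 other genes known for this (mei4, ssm4, spo5, crs1 and num1, which is also called mcp5), all 5 rose late with P-factor, by 1.48 (mei4) to 3.44 (num1), with a median of 1.80, beside 33.7% of all genes. Without P-factor 1 of 5 rose, beside 24% of all genes, mei4 by 0.60 ± 0.18, and the median was 0.18. The mei4 rise was not called without replicate 1 (0.65, adjusted p = 0.106) or replicate 2 (0.56, adjusted p = 0.145). The difference between conditions was called for all 5, at 0.88 (mei4) to 3.26 (num1), beside 15.6% of all genes called in that direction. Without replicate 1 or replicate 2 of the condition without P-factor, it was not called for ssm4 (1.42 and 1.10) or mei4 (0.84 and 0.92), and mei4 was also not called without replicate 2 of the P-factor condition (0.66).

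Condensin and the Smc5/6 complex are built on other SMC proteins and serve as a comparison for psm1 and psm3. Of 7 genes, 2 rose late with P-factor, smc6 (0.64 ± 0.17) and smc5 (0.34 ± 0.13), and the condensin kleisin gene cnd2 fell by 0.66 (SE 0.16, adjusted p = 0.00149). Over all genes 33.7% rose and 19.8% fell in that comparison. The smc6 change was 0.08 without replicate 1 of the P-factor condition, and the smc5 call was lost in 9 of 15 alternatives. The cnd2 call was lost without replicate 2 (-0.54, adjusted p = 0.0537) and with arrays centred on the probes without a single gene (-0.10, adjusted p = 0.647). Without P-factor cnd1 rose by 0.51 ± 0.11 and no other gene of the list was called, beside 24% of all genes that rose and 18.3% that fell. Without replicate 2 it was 0.42 and was not called. No gene of the list was called between conditions in limma (at an unadjusted p under 0.05, 1 was higher and 1 lower), and smc6 came nearest (0.65 ± 0.25, adjusted p = 0.0565). The list's median difference was -0.06, beside 1.59 for psm1, 1.76 for psm3 and 0.05 over all genes.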

How the data were processed

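Fission yeast polyA RNA was measured on 32 two-colour arrays. The deposited table holds 1 log ratio per probe and array, used here as log2 of starved (Cy5) over growing (Cy3) cells, with the dyes taken per the labels and no dye swap. The log base and the authors' background correction and normalization are not given in the sources used here, and a natural logarithm was not excluded. Deposited values ran from -5.52 to 9.779, and 0.456% were missing. No scanner intensities were used. The precision stated rests on the spread between the arrays as modelled below.

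Of 5188 probes, 4868 had 1 gene in the platform's gene table, 22 several and 298 were not listed. Symbols were updated through RefSeq names (4842 probes matched). Probes of 1 gene were averaged (4 genes), and each array was centred on its median, by -0.154 to 0.091. Genes measured on at least 24 arrays (4811) were fitted in limma 3.58.1 (R 4.3.3) as 16 means of hour and condition, with array series as a random block (duplicateCorrelation, 0.354) and eBayes moderation. Benjamini-Hochberg adjustment ran over all 4811 genes and a gene was called below 0.05. The errors printed after ± are standard errors of this fit unless named SD. The interval of rec8 minus rad21 came from the same model fitted to the difference, with 16 residual degrees of freedom before moderation. The test was checked on simulated data.

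The labels number no replicates and do not say that the 2 arrays of an hour came from separate cultures. The p-values therefore measure the spread between these arrays, which may be technical. For late minus early changes, p-values and intervals alike take the hours of a series as separate arrays. They do not measure how far such a change varies between series. Series were read from the array numbers in the titles. The cohesin genes were named throughout, with all measured members of each related list, marker genes of starvation and of M and P cells, and the 3 genes of highest Pearson correlation with each cohesin gene. Members and lists were chosen with earlier results of these data known. Alternatives covered centring, scaling, the block, the filter, the hours, the spread model, the arrays fitted and each series left out. A centring on probes without a single gene was added after seeing the data.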

Additional observations from a re-analysis of the deposited data

Results flagged for a closer look

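For 4 cohesin genes the late minus early change differed between conditions by a test of the difference itself (limma, an interaction over all arrays). Over all genes, 15.6% were called in the direction of P-factor. The difference, with P-factor minus without it, was 3.30 for rec8, 1.76 for psm3, 1.59 for psm1 and 0.52 for psc3 on the log2 scale. By series, the rec8 change was 3.63 and 3.16 with P-factor and 0.13 and 0.06 without it. The psm3 change was 1.36 and 1.52 with P-factor and -0.52 and -0.11 without it. The psm1 change was 1.83 and 1.43 with P-factor and 0.31 and -0.22 without it. The psc3 change was 0.34 and 0.64 with P-factor and -0.01 and -0.05 without it, and the psc3 difference kept its call in only 9 of 14 alternatives. Strain and pheromone cannot be told apart in these differences.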

How the results depend on the processing

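Of 536 values recomputed for 39 results under 15 alternatives, 485 counted as unchanged. For tested genes this meant the same direction and side of the threshold. For numbers of genes called it meant a number within a fixed ratio of the main one. For rec8 minus rad21 it meant the same direction and a shift smaller than the spread between series. By that rule leaving out a series could not count as a change. Centring, the block and the filter also leave this difference as it was. Such values, counted among the 485, were fixed in advance and are no support. The late rise with P-factor of rec8 (3.13 to 3.95), psm1 (1.34 to 2.19) and psm3 (1.14 to 2.00) was called in all 15 alternatives, and the difference between conditions in all 14 run (3.06 to 3.89, 1.30 to 2.18 and 1.44 to 2.35). With series left out, rec8 minus rad21 changed by 3.32 to 4.71 with P-factor and 0.61 to 1.80 without it, a difference of 2.11 to 3.50. Centring on probes without a single gene moved the all-gene median of the late change with P-factor by 0.56 and of the difference by 0.59, values as deposited by -0.19 and -0.13, and quantile normalization moved the first by -0.13. The causes of the changes below were not tested, and leaving out a series also leaves fewer arrays in the fit.

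With arrays centred on probes without a single gene, rad21 changed late by -0.06 with P-factor (adjusted p = 0.841) and its difference was 1.09 (0.0154), the rec8 average difference was 1.43 (0.0345), and the averages against growth without P-factor were 0.24 for psm3 (0.179) and 0.28 for psc3 (0.051). Without the block, average differences were called for rec8 (1.27, adjusted p = 8.52e-05), rad21 (0.65, 0.017) and psm1 (0.68, 0.00118), and the late change of rad21 with P-factor was not (-0.62, 0.13). With one spread for all arrays, the rec8 average difference was 1.34 (0.0482) and rad21 changed late by -0.58 with P-factor (0.0604). With values as deposited, the late changes without P-factor were -0.02 for psm1 and -0.38 for psm3 (0.0251), and the psc3 difference was 0.40 (0.0606). For 5 to 8 h minus 1 to 4 h, the changes without P-factor were -0.084 for rec8 and -0.29 for psm3 (0.0497), and the psc3 difference was 0.34 (0.0657). With only the arrays without P-factor, the psm3 average was 0.34 (0.0569). The number of genes called for the difference between conditions was 1241, against 683 without the block and 2743 with the added centring. For the average difference it was 160, against 1457 without the block.

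With 1 series left out, average differences ran from 1.04 to 1.50 for rec8, 0.23 to 1.07 for rad21, 0.50 to 0.86 for psm1 and 0.99 to 1.24 for psm3. The late change of rad21 ran from -1.08 to -0.16 with P-factor and -1.67 to -0.56 without it, and the difference from -0.063 to 1.05. The late change of psm1 without P-factor ran from -0.22 to 0.31, that of psc3 with P-factor from 0.34 to 0.65, and the psc3 difference from 0.37 to 0.68. Averages against growth ran from 0.58 to 0.65 for rad21 with P-factor, and without it from -0.45 to 0.39 for rad21, 0.60 to 0.92 for rec8 and 0.21 to 0.46 for psm3. Genes called numbered 1024 to 2018 for the late change without P-factor (2034 with all series), 562 to 967 for the difference and 20 to 1195 for the average difference. No paired analysis of the conditions was possible because the labels number no replicates. Array series as a fixed block, which compares late with early hours within a series, was run only for the late minus early changes and their difference. No call among these changed. The design leaves the estimates of the cohesin genes the same in that setting, so only their errors could differ.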
